A study of Mus musculus with 2 samples.

Results

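The genes described here are 34 genes of glycolysis and the response to low oxygen, out of 27998 genes counted in single CD45+ cells (leukocytes) from mouse tumours grown from the B16 melanoma line. They were chosen by gene symbol: 3 transporters, 14 glycolytic enzymes, 3 regulators of glycolytic flux, 3 oxygen-sensing genes and 11 further hypoxia targets. All 34 symbols were found. There were 2 libraries, each from female C57BL/6 mice aged 5 weeks, 14 days after the tumour cells were given. In the Nrp1L/L Foxp3Cre-YFP mice, both Nrp1 alleles are floxed and Cre recombinase with a yellow fluorescent protein is expressed from Foxp3, a gene of regulatory T cells, so that Nrp1 is meant to be disrupted in those cells and not in the classes compared below. The Foxp3Cre-YFP control mice carry the same Cre and fluorescent protein with no floxed Nrp1 stated. Each genotype was 1 library made from 2600 loaded cells, so genotype, mouse, tumour and library cannot be told apart, and no test between genotypes is possible.

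After doublets were left out, the Nrp1L/L library held 1275 cells with 8774789 UMIs (molecular barcodes, by which copies of 1 transcript are counted a single time), and the control library 1302 cells with 12912194. Cells were classed by their own transcripts. CD8 T cells had at least 2 UMIs of the CD3 genes and at least 2 of Cd8a and Cd8b1, natural killer (NK) cells at least 2 of Ncr1 and Klrb1c with at most 1 CD3 UMI, macrophages at least 10 UMIs of the complement C1q genes, and monocytes at least 10 of Lyz2 with fewer than 10 of C1q. There were 393 Nrp1L/L and 236 control CD8 T cells, 186 and 81 NK cells, 93 and 274 macrophages, and 142 and 327 monocytes, while 461 Nrp1L/L and 384 control cells met no rule, and 2 and 8 cells that met a lymphoid and a myeloid rule were left out. For NK cells and macrophages, a marker not used by the rules went with the name. The NK receptor gene Klra8 stood at 377 and 314 counts scaled to 1000000 UMIs of the class (CPM) in Nrp1L/L and control NK cells. In the other 3 classes it was at 0 to 4.97 CPM. The macrophage gene Mrc1 was at 53.4 and 108 CPM in macrophages, against 0 to 22.3 CPM elsewhere. No such marker is given here for CD8 T cells or monocytes, whose names rest on the rules. Monocytes also held dendritic cell transcripts, 430 CPM over 7 markers in Nrp1L/L and 110 CPM in control monocytes. Only 3 cells in each library had a Foxp3 UMI, with 1 Nrp1 UMI among the Nrp1L/L and 0 among the control ones, so the deletion could not be checked. Over all kept cells Nrp1 had 303 UMIs (34.5 CPM) in the Nrp1L/L and 630 UMIs (48.8 CPM) in the control library, and 3' tags may lie outside the deleted part.

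Glycolysis turns glucose into pyruvate and, with lactate dehydrogenase, into lactate, and it yields ATP without oxygen. When oxygen is scarce, the prolyl hydroxylases encoded by Egln1 and Egln3 no longer mark HIF-1alpha (Hif1a) for destruction, and the HIF complex binds short DNA elements with the core RCGTG and switches on most glycolytic enzymes together with genes of mitophagy, lipid storage, protein folding and growth restraint. Tumours of this kind outgrow their blood supply, and macrophages and monocytes in poorly perfused regions are known to carry this programme, whereas activated T and NK cells also raise glycolysis through growth signals.

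The promoters of a few of the genes described below are shown to place the HIF core in its sequence. They are the 250 bases before the RefSeq transcription start in build GRCm38.p6, read on the gene's strand, with each ACGTG or GCGTG in capitals on either strand (CACGT and CACGC are the same cores on the other strand). Ldha and Pgk1 stand for the enzymes, Hk3 for the enzyme that was higher in the Nrp1L/L library, and Egln3 and Hilpda for the hypoxia genes that were most clearly lower in its myeloid cells. They lie at chr7:46845554-46845803 (plus strand), chrX:106186850-106187099 (plus), chr13:55021386-55021635 (minus), chr12:54203875-54204124 (minus) and chr6:29272238-29272487 (plus).
Ldha: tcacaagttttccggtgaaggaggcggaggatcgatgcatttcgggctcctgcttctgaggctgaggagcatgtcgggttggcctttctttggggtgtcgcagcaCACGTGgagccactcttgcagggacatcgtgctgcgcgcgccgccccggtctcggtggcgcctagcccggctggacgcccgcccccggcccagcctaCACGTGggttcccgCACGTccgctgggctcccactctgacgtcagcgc
Pgk1: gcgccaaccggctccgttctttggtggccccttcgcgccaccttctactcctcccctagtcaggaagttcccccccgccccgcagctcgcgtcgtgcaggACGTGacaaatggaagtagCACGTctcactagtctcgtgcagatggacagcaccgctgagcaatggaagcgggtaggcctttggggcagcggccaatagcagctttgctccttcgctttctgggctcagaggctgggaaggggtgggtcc
Hk3: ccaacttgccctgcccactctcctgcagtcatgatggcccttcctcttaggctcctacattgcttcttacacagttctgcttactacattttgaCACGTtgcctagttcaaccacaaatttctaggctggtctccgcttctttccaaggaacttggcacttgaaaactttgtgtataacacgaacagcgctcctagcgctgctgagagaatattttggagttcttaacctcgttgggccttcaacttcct
Egln3: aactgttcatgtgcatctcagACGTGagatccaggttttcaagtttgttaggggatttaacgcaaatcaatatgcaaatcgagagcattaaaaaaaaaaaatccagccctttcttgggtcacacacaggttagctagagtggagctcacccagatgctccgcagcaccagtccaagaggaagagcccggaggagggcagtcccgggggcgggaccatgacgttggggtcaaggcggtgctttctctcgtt
Hilpda: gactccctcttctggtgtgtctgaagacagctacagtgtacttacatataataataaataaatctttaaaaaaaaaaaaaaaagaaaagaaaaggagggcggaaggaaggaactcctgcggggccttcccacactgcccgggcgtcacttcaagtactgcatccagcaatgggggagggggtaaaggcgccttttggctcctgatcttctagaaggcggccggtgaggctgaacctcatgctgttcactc
The Ldha window held 5 matches, among them a pair of CACGTG palindromes that each count on both strands, Pgk1 held 2, and Hk3 and Egln3 held 1 each. The Hilpda window shown held 0 matches, and the window of a second RefSeq start of Hilpda held 3. The window of a second RefSeq start of Ldha held 1. For the Ldha and Egln3 starts shown, the bases that follow were not found near the 5' end of a GENCODE transcript. For Pgk1, Hk3 and Hilpda they were. RefSeq promoters were matched for 29 of the 34 genes, with 39 starts. The core was found in 31 of these 39 windows (79.5%), against 12679 of 32851 windows of the same length over all genes (38.6%), and the median window held 16 CG pairs, against 6 over all genes. It was found in 16 of 21 enzyme windows (76.2%) and in 6 of 8 windows of hypoxia targets (75%), so its presence did not part the enzymes from the other targets. A match is a string of letters and not a measured binding site.

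Between genotypes, the enzymes and the hypoxia targets were lower in Nrp1L/L than in control NK cells and monocytes, and by less in CD8 T cells. In macrophages the hypoxia targets were lower and the enzymes were not. The 14 enzymes made up 0.849% of UMIs in Nrp1L/L monocytes and 1.21% in control monocytes, and 1.14% in both Nrp1L/L and control macrophages. The 11 hypoxia targets made up 0.163% in Nrp1L/L monocytes and 0.330% in control monocytes, and 0.252% and 0.324% in macrophages. The log2 ratio of the enzyme share, Nrp1L/L over control, was 0.01 (95% counting interval -0.03 to 0.04) in macrophages and that of the hypoxia share -0.36 (-0.43 to -0.30), so the intervals of the 2 groups did not meet. In monocytes the ratios were -0.52 (-0.55 to -0.48) for enzymes and -1.02 (-1.09 to -0.95) for hypoxia targets. In NK cells the enzymes took 0.526% and 0.947% of UMIs in Nrp1L/L and control cells and the hypoxia targets 0.123% and 0.218%, and the ratios of -0.85 (-0.90 to -0.79) and -0.83 (-0.94 to -0.71) overlapped. CD8 T cells were closer between genotypes than NK cells, with 0.911% and 1.05% for enzymes and 0.169% and 0.227% for hypoxia targets. Their ratios were -0.21 (-0.23 to -0.19) for enzymes and -0.42 (-0.47 to -0.37) for hypoxia targets, and these intervals did not meet either. Mif holds much of the hypoxia share, and without it the hypoxia ratios were -1.11 in monocytes, -0.61 in macrophages, -0.48 in NK cells and -0.25 in CD8 T cells. The CD8 T interval without Mif was -0.33 to -0.18, which met that of the enzymes. In NK cells it was -0.63 to -0.33, which no longer met that of the enzymes, so the overlap there depended on Mif. These intervals are exact and cover counting error only.

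**Figure D1:**
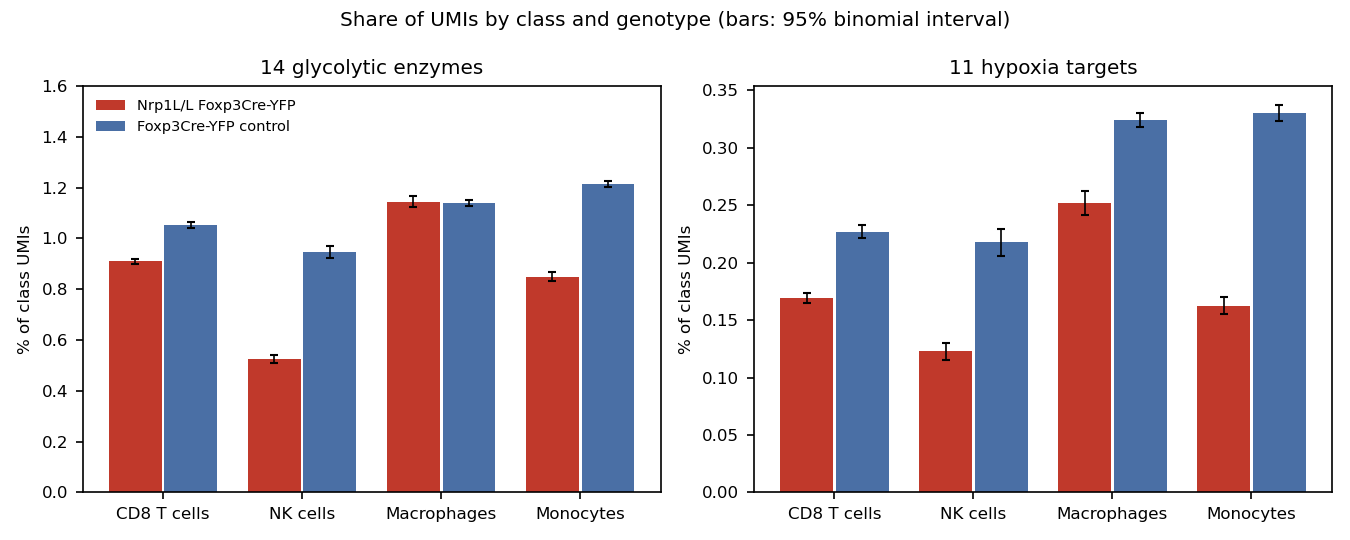
Percent of each class's UMIs taken by the 14 glycolytic enzymes (left) and the 11 hypoxia targets (right) in Nrp1L/L Foxp3Cre-YFP (red) and Foxp3Cre-YFP control cells (blue), 1 library each, with 95% exact binomial intervals. The enzyme bars of macrophages are level at 1.14%, while their hypoxia bars stand at 0.252% and 0.324%, and the largest gap in hypoxia targets is in monocytes.

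Counted gene by gene, a member was measured in a class if it had at least 20 UMIs over both libraries and called if it differed at least 1.5-fold. In monocytes 16 of 32 measured members were lower and 2 higher in the Nrp1L/L library, where 17.8% of all 7346 genes measured were lower and 16.0% higher. In NK cells 15 of 26 were lower and 1 higher, against 12.7% and 23.6% of 5796 genes. In macrophages 6 of 34 were lower and 2 higher, against 23.2% and 14.4% of 7985 genes, and in CD8 T cells 5 of 31 were lower and 1 higher, against 13.6% and 16.7% of 8903 genes, so in these 2 classes the members' counts lay near or under those of all genes. The median log2 ratio of the enzymes was -0.50 in monocytes, -0.82 in NK cells, 0.03 in macrophages and -0.20 in CD8 T cells, and that of the hypoxia targets -0.83, -0.94, -0.46 and -0.39 in the same order. Over all genes the medians were -0.01, 0.09, -0.11 and 0.00. The 4 classes come from the same 2 libraries.

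Depth and the cell cycle differed with genotype beside these values. Median UMIs per cell were 6578 and 10846 in Nrp1L/L and control CD8 T cells, 4289.5 and 5450 in NK cells, 8742 and 10807.5 in macrophages, and 8173 and 7791 in monocytes. Cells with at least 2 UMIs of 6 cell cycle genes made up 28.5% and 48.3% of CD8 T cells, 8.60% and 16.0% of NK cells, 11.8% and 29.6% of macrophages, and 2.82% and 3.06% of monocytes. Without those cells the medians of enzymes and hypoxia targets were -0.05 and -0.24 in CD8 T cells and -0.51 and -0.43 in NK cells, while macrophages had -0.02 and -0.77 and monocytes -0.52 and -0.87. NK cells were also uneven, the deepest 10% of cells holding 22.3% of UMIs in the Nrp1L/L and 32.8% in the control library. With every cell thinned to 2500 UMIs the NK medians were -0.39 and -0.38, with 6 members lower and 3 higher. In monocytes without dendritic or neutrophil UMIs they were -0.48 and -0.74, with 14 lower and 1 higher. The matching shares of all genes were not computed for these settings. Melanoma markers summed to 46.9 CPM in Nrp1L/L macrophages, with 1 of 7 at 0, and to 56.6 CPM in control macrophages, with 0 of 7 at 0. Leaving out cells with at least 3 melanoma UMIs was among the alternatives run. Over all of these the macrophage medians stayed within -0.77 to -0.40 for hypoxia targets and -0.03 to 0.09 for enzymes. Any further part of melanoma transcripts in the results was not tested.

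**Figure D2:**
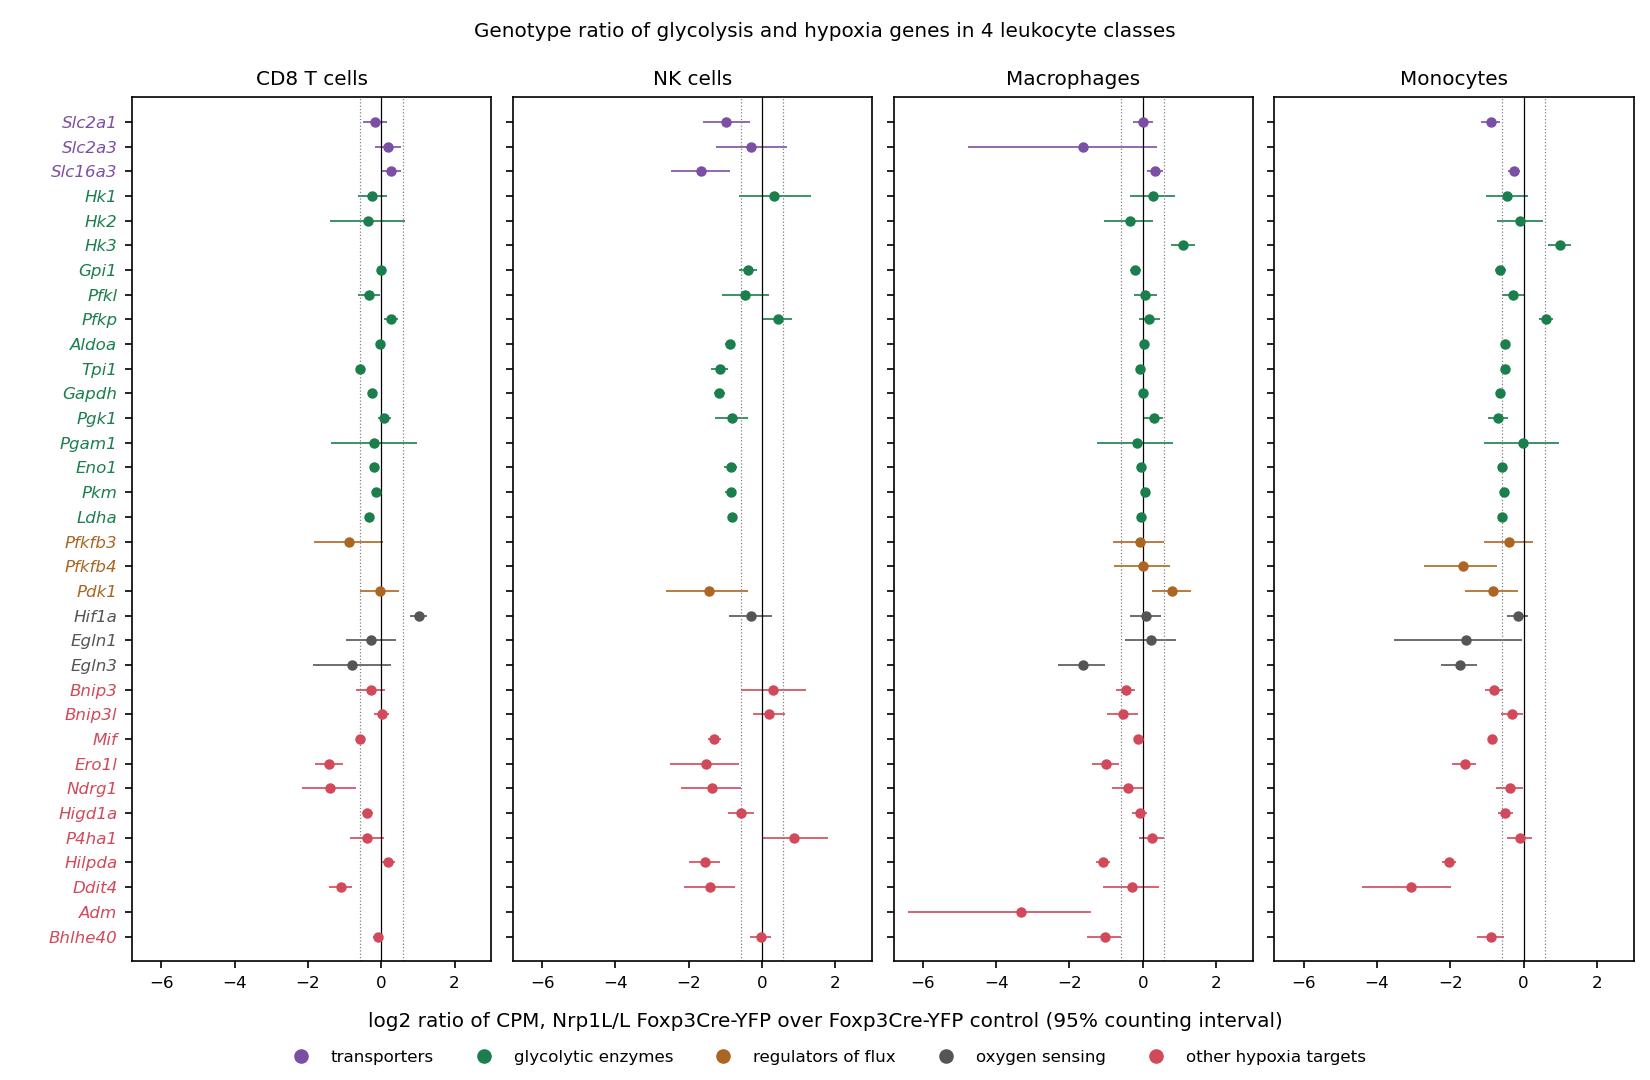
Log2 ratio of CPM, Nrp1L/L Foxp3Cre-YFP over Foxp3Cre-YFP control, for the 34 genes (rows, coloured by role) in 4 classes (panels), with 95% counting intervals; dotted lines mark 1.5-fold, and genes under 20 UMIs in a class have no point. Most points of monocytes and NK cells lie left of 0, most macrophage enzymes lie near 0 with Hk3 to the right, and Ero1l is left of the dotted line in each class.

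Hilpda, which encodes a lipid droplet protein that holds back fat breakdown, had one of the widest gaps among the hypoxia targets. It stood at 205 CPM (237 UMIs) in Nrp1L/L and 840 CPM (2222 UMIs) in control monocytes, at 292 and 617 CPM in macrophages, at 78.2 and 231 CPM in NK cells, and at 162 and 142 CPM in CD8 T cells. The log2 ratios were -2.03 (-2.23 to -1.84), -1.08 (-1.27 to -0.89), -1.56 (-1.99 to -1.14) and 0.19 (0.00 to 0.37). It was thus lower in the 3 classes other than CD8 T cells, and without cycling cells the NK ratio was -0.68.

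Ero1l, an oxidase that forms disulfide bonds in the endoplasmic reticulum, was the only member at least 1.5-fold lower in all 4 classes. Its levels were 80.5 CPM in Nrp1L/L and 246 CPM in control monocytes, 78.5 and 157 CPM in macrophages, 17.4 and 50.5 CPM in NK cells, and 24.2 and 64.8 CPM in CD8 T cells. The log2 ratios were -1.61 (-1.94 to -1.29) in monocytes, -1.54 in NK cells and -1.42 in CD8 T cells, and the interval in macrophages was -1.38 to -0.64. Without cycling cells the ratio in CD8 T cells was -2.16.

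Ddit4, an inhibitor of the growth kinase mTORC1, was at 6.06 CPM (7 UMIs) in Nrp1L/L and 50.7 CPM (134 UMIs) in control monocytes, a log2 ratio of -3.06 (-4.41 to -1.98). It was at 31.5 and 84.6 CPM in NK cells and at 40.0 and 86.0 CPM in CD8 T cells, with ratios of -1.43 and -1.10, and without cycling cells these ratios were -0.46 and -0.53. With the mean of per-cell CPM the NK ratio was -0.51. In macrophages it was at 20.7 and 25.3 CPM, within counting error. Ndrg1, a stress-induced gene linked to differentiation, passed the 1.5-fold mark in lymphoid cells, at 7.01 and 18.5 CPM in CD8 T cells and 23.9 and 61.9 CPM in NK cells, and its ratios of -0.40 in macrophages and -0.38 in monocytes had the same sign.

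Mif, a secreted inflammatory cytokine, was at 437 CPM in Nrp1L/L and 1073 CPM in control NK cells and at 610 and 1108 CPM in monocytes, with log2 ratios of -1.30 and -0.86. It was at 828 and 1237 CPM in CD8 T cells, just short of 1.5-fold, and at 1379 and 1502 CPM in macrophages. Bnip3, a receptor that marks mitochondria for removal, was at 152 and 266 CPM in monocytes (ratio -0.80) and at 172 and 237 CPM in macrophages (-0.46). Its relative Bnip3l had ratios between -0.54 and 0.19. Bhlhe40, a transcriptional repressor used by many leukocytes, was at 52.3 and 108 CPM in macrophages (-1.04) and at 69.2 and 129 CPM in monocytes (-0.90), whereas in CD8 T cells (266 and 285 CPM) and NK cells (279 and 286 CPM) its intervals included 0. With macrophages taken from 5 C1q UMIs up its macrophage ratio was -0.55, and thinned to 2500 UMIs its monocyte ratio was -1.90.

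Adm, which encodes the vessel-dilating peptide adrenomedullin, reached 20 UMIs in macrophages alone, with 2 UMIs (2.18 CPM) in Nrp1L/L and 71 (21.9 CPM) in control cells, a log2 ratio of -3.33 (-6.41 to -1.43). With macrophages taken from 5 C1q UMIs up, that ratio was -1.10. Higd1a, a protein of the mitochondrial respiratory chain, was below 0 in all 4 classes (-0.58 to -0.08) without reaching 1.5-fold. P4ha1, a collagen prolyl hydroxylase, went the other way in NK cells, with 47.8 CPM (44 UMIs) in Nrp1L/L and 26.05 CPM (16 UMIs) in control cells (0.88), and had ratios of -0.40 to 0.24 elsewhere. The NK ratio was 0.45 with cells thinned to 2500 UMIs and 0.55 with cells that met both rules kept.

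Among the oxygen-sensing genes, Egln3 followed the hypoxia targets and Hif1a did not. Egln3, itself a HIF target, was at 35.5 CPM (41 UMIs) in Nrp1L/L and 118 CPM (313 UMIs) in control monocytes and at 26.2 and 81.6 CPM in macrophages, with log2 ratios of -1.74 (-2.24 to -1.26) and -1.64 (-2.31 to -1.04). In CD8 T cells it had 14 and 21 UMIs, 4.09 and 7.05 CPM, and the interval included 0. Hif1a was at 155 CPM (530 UMIs) in Nrp1L/L and 76.2 CPM (227 UMIs) in control CD8 T cells, a ratio of 1.02 (0.80 to 1.25), and the ratio without cycling cells was 0.77. In NK cells, macrophages and monocytes its ratios were -0.31, 0.09 and -0.16, each with an interval that included 0. The transcript of Hif1a says little about HIF-1alpha protein, which is set by oxygen through its breakdown. Egln1 was at 3.46 and 10.2 CPM in monocytes, from 4 and 27 UMIs.

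Among the abundant enzymes, in monocytes Gapdh was at 1205 CPM in Nrp1L/L and 1882 CPM in control cells (log2 ratio -0.64), Ldha at 1551 and 2341 CPM (-0.59), Eno1 at 848 and 1285 CPM (-0.60), Gpi1 at 425 and 660.5 CPM (-0.64) and Pgk1 at 118 and 190.5 CPM (-0.69). These 5 were the enzymes at least 1.5-fold lower in monocytes, and Aldoa, Tpi1 and Pkm lay just inside it, at -0.49 to -0.52. Without dendritic or neutrophil UMIs the monocyte ratios of Gapdh and Ldha were -0.57 and -0.48. In NK cells 7 of 11 measured enzymes were lower, Gapdh at 722 and 1616 CPM (-1.16), Tpi1 at 284.5 and 635 CPM (-1.16), and Aldoa, Eno1, Pkm, Pgk1 and Ldha at -0.87 to -0.81. Gpi1 was closer, at 325 and 423 CPM (-0.38). Thinned to 2500 UMIs, Gapdh in NK cells had a ratio of -0.85, while Aldoa, Eno1, Pkm, Ldha and Pgk1 lay at -0.56 to -0.25, inside 1.5-fold. In macrophages Gapdh was at 2365 and 2342 CPM, Ldha at 2130 and 2196 CPM and Pkm at 1858 and 1781 CPM, each with an interval that included 0. In CD8 T cells 0 of 13 measured enzymes reached 1.5-fold, and the nearest, Tpi1, was at 520 and 776 CPM (-0.58), while Gpi1 was at 465 and 464 CPM. Gapdh, Aldoa, Pgk1, Pgam1, Ldha and Mif each have 2 pseudogenes named after them in the annotation and Bnip3l has 1, so their counts are less certain. Pseudogenes under other names were not counted, so the same limit may hold for other members.

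Only 2 enzymes were at least 1.5-fold higher in any of the 4 classes, Hk3 and Pfkp, both at the entry of glycolysis. Hk3, the hexokinase of myeloid cells, was at 138 CPM (160 UMIs) in Nrp1L/L and 69.6 CPM (184 UMIs) in control monocytes and at 143 and 66.5 CPM in macrophages, with log2 ratios of 0.99 (0.68 to 1.31) and 1.10 (0.78 to 1.42). Its relatives Hk1 and Hk2 had ratios of -0.44 to 0.32, all with intervals that included 0. Pfkp, the platelet-type phosphofructokinase, was at 324 CPM in Nrp1L/L and 212 CPM in control monocytes (0.61), and its ratio was above 0 in all 4 classes, although -0.15 in macrophages with cells thinned to 2500 UMIs. In monocytes without dendritic or neutrophil UMIs the Pfkp ratio was 0.41. Pfkl, the liver type, was between -0.45 and 0.07.

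Glucose and lactate transporters were mixed. Slc2a1, the main inducible glucose transporter, was at 136 CPM (157 UMIs) in Nrp1L/L and 252 CPM (666 UMIs) in control monocytes, a log2 ratio of -0.89 (-1.15 to -0.64) that was -0.33 with cells thinned to 2500 UMIs, and at 156 and 155 CPM in macrophages. In NK cells it was at 42.4 and 83.0 CPM, and this ratio of -0.97 turned to 0.60 under the same thinning. Slc16a3, which exports lactate, was at 22.8 and 71.6 CPM in NK cells (-1.65) and at 271 and 215 CPM in macrophages (0.33), with a ratio of -0.26 in monocytes and 0.27 in CD8 T cells. Slc2a3, a glucose transporter of high affinity, was at 44.98 and 39.6 CPM in CD8 T cells and had 2 and 22 UMIs in macrophages.

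Of the flux regulators, Pdk1 is a mitochondrial kinase that inhibits pyruvate dehydrogenase and so limits the conversion of pyruvate to acetyl-CoA. It was at 51.2 CPM (47 UMIs) in Nrp1L/L and 29.7 CPM (96 UMIs) in control macrophages, at 18.2 and 32.5 CPM in monocytes and at 13.0 and 35.8 CPM in NK cells. The log2 ratios were 0.79 (0.25 to 1.31), -0.84 (-1.60 to -0.14) and -1.46 (-2.61 to -0.38). Thinned to 2500 UMIs the monocyte ratio was -0.31. Pfkfb4, which makes and breaks the activator of phosphofructokinase, was at 9.52 and 29.9 CPM in monocytes (-1.65), at 21.8 and 21.6 CPM in macrophages, and at 0 UMIs in CD8 T and NK cells of both libraries. Pfkfb3 was at 4.97 and 9.07 CPM in CD8 T cells, from 17 and 27 UMIs.

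Further genes of the pathways, from lists of 26 glycolysis and 35 hypoxia genes, moved less uniformly. Over all genes measured, 23.2% were lower and 14.4% higher in macrophages, and 17.8% and 16.0% in monocytes. In NK cells these shares were 12.7% and 23.6%, and in CD8 T cells 13.6% and 16.7%. Among other hypoxia genes 10 of 27 measured were lower and 1 higher in macrophages, 9 of 21 lower and 2 higher in monocytes, 3 of 13 lower and 5 higher in NK cells, and 2 of 19 lower and 6 higher in CD8 T cells, with medians of -0.34, -0.33, 0.28 and 0.21. Ankrd37, a direct HIF target, was lower in every class, at 95.2 CPM in Nrp1L/L and 177 CPM in control monocytes, 80.6 and 142 CPM in macrophages, 16.3 and 37.4 CPM in NK cells, and 32.7 and 59.1 CPM in CD8 T cells. In monocytes the angiogenic factor Pgf was at 4.33 CPM (5 UMIs) and 54.1 CPM (143 UMIs), Mxi1, an antagonist of MYC, at 10.4 and 46.1 CPM, and the heme-degrading enzyme Hmox1 at 238 and 615 CPM. Txnip, which curbs glucose uptake, was higher in Nrp1L/L monocytes (128 and 68.4 CPM), NK cells (181 and 78.1 CPM) and CD8 T cells (107 and 60.4 CPM). Mxi1 went the other way in CD8 T cells, at 20.4 and 12.4 CPM. Among others that were higher, Plod2 was at 20.2 and 8.39 CPM in CD8 T cells and Wsb1 at 93.4 and 48.8 CPM in NK cells. Cited2 was at 176 and 104 CPM in monocytes.

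Among other glycolysis genes 5 of 13 measured were lower and 4 higher in monocytes, and 4 of 9 lower and 1 higher in NK cells. In macrophages 3 of 16 were lower and 2 higher, and in CD8 T cells 3 of 16 lower and 1 higher. Over all genes, 17.8% were lower and 16.0% higher in monocytes, and 12.7% and 23.6% in NK cells. The shares were 23.2% and 14.4% in macrophages and 13.6% and 16.7% in CD8 T cells. The enolase gene Eno3 was at 22.5 CPM (77 UMIs) in Nrp1L/L and 118 CPM (351 UMIs) in control CD8 T cells, a log2 ratio of -2.39 (-2.76 to -2.03). Ldhb, the lactate dehydrogenase subunit that favours lactate use, was at 57.1 and 18.1 CPM in monocytes (1.65), and the related kinase gene Pdk3 at 62.3 and 27.2 CPM (1.19), opposite in sign to Ldha and Pdk1 in the same cells. Among those lower in monocytes were Gbe1 at 4.33 and 18.1 CPM (-2.07) and Aldoc at 9.52 and 26.5 CPM (-1.47). Ratios of the listed other pathway genes were not checked in monocytes without dendritic or neutrophil UMIs.

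Cell by cell, the genotype gap in hypoxia targets was seen across the distribution in monocytes and from the median up in macrophages. With each cell thinned to 2500 UMIs, macrophages held a median of 5 hypoxia-target UMIs in the Nrp1L/L and 7 in the control library, and 12 and 21 at the 90th percentile. Their 25th percentile was 3 in both libraries. Monocytes held 1 and 2 at the 25th percentile, a median of 3 and 5, a 75th percentile of 5 and 12 and a 90th percentile of 10 and 21, and 16.9% of Nrp1L/L and 9.79% of control monocytes had 0. In both libraries the top 10% of monocytes held much of the signal, 38.4% and 36.8% of all hypoxia-target UMIs. Enzymes were spread more evenly, with medians of 15.5 and 25 UMIs in monocytes and of 25 and 27 in macrophages. In lymphoid cells the median of hypoxia targets was 4 in CD8 T cells and 3 in NK cells of both libraries. The upper parts differed in NK cells, with 4 and 7 UMIs at the 75th and 5.5 and 10 at the 90th percentile in Nrp1L/L and control cells, and less in CD8 T cells, with 8 and 9 at the 90th percentile.

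**Figure D3:**
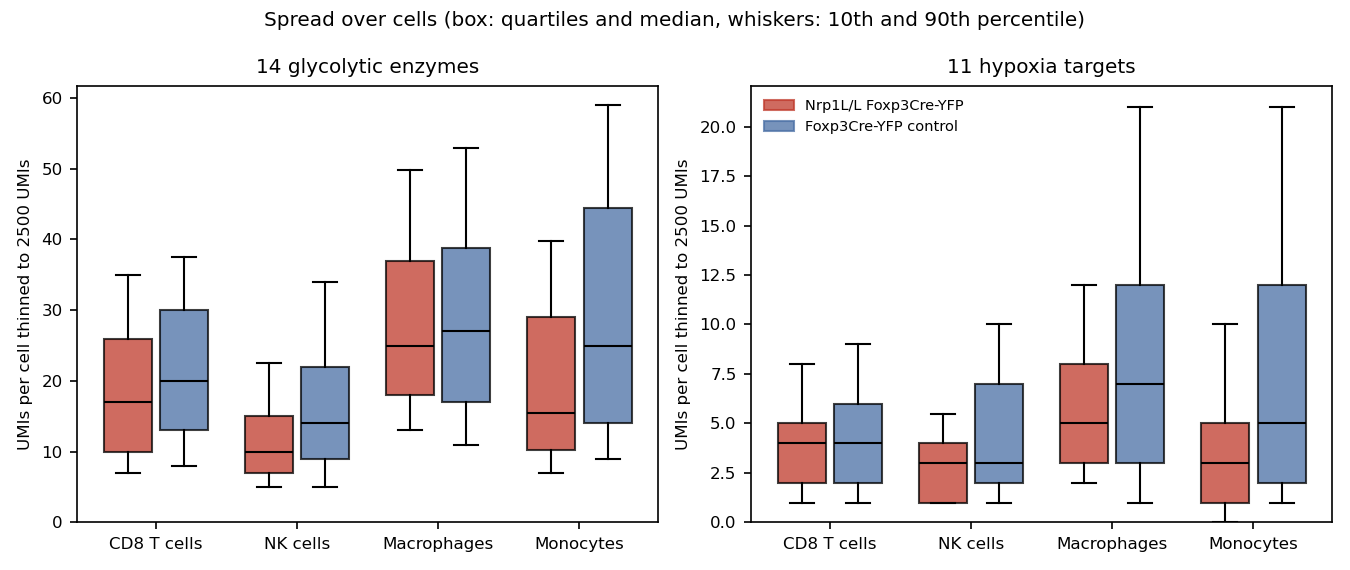
UMIs per cell, each cell thinned to 2500 UMIs, of the 14 enzymes (left) and 11 hypoxia targets (right) by class in Nrp1L/L Foxp3Cre-YFP (red) and control (blue) libraries; boxes give quartiles and median, whiskers the 10th and 90th percentiles over cells. The upper whiskers of hypoxia targets end at 12 and 21 UMIs in macrophages and at 10 and 21 in monocytes.

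The summed levels of enzymes and of hypoxia targets went together from cell to cell, least so in Nrp1L/L NK cells. Across 142 Nrp1L/L and 327 control monocytes, Pearson's r between the thinned enzyme and hypoxia levels was 0.67 and 0.70, and across 93 and 274 macrophages it was 0.54 and 0.62. It was 0.44 and 0.50 across 393 and 236 CD8 T cells, and 0.23 and 0.72 across 186 and 81 NK cells. The cells of a library share its ambient RNA, and in lymphoid cells the thinned levels also went with the cell's depth. In Nrp1L/L and control CD8 T cells r with depth was 0.56 and 0.66 for enzymes and 0.23 and 0.35 for hypoxia targets, and in NK cells 0.27 and 0.58 for enzymes and -0.0038 and 0.44 for hypoxia targets. In macrophages and monocytes r with depth lay between -0.24 and 0.14. Single gene pairs were looser, with a median r over enzyme pairs of 0.21 and 0.30 in monocytes. Over pairs of an enzyme with a hypoxia target it was 0.16 and 0.19 in monocytes and 0.12 and 0.16 in macrophages. In CD8 T cells it was 0.10 and 0.07, and in NK cells 0.002 and 0.18. In each class and library the closest such pair included Mif. Bnip3 with Hilpda was the closest pair of hypoxia targets in control monocytes (0.55) and control macrophages (0.40).

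Genes outside the set whose levels went most closely with the summed hypoxia targets were ranked by the lower r of the 2 libraries. In monocytes, out of 2039 genes, they were Plin2 (0.50 and 0.52), which coats lipid droplets, Lgals3 (0.46 and 0.56), the arginase gene Arg1 (0.44 and 0.45), the ferritin genes Fth1 and Ftl1, then Rgs1, B2m, Cstb, Lgmn and Hmox1. In macrophages, out of 2095 genes, they were Anxa2 (0.42 and 0.41), Id2 (0.43 and 0.39), Srgn, Spp1 (0.38 and 0.43), Lgals3, Cebpb, Arg1 (0.33 and 0.41), Eif4ebp1, Clec4e and Plin2 (0.31 and 0.39). Lgals3, Arg1 and Plin2 were in both lists, and Anxa2 and Hmox1 belong to the list of other hypoxia genes. These are descriptions over cells of 2 libraries.

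Across classes, most of the set was higher in myeloid than in lymphoid cells, in both libraries. Here UMIs were summed over macrophages and monocytes and over CD8 T and NK cells of each library and tested with edgeR's quasi-likelihood test, library as a block. With 4 sums and 1 residual degree of freedom the spread is borrowed from all genes. The p-values weigh the class difference against how it varied between the 2 libraries, which are also the 2 genotypes. An exact permutation over the libraries could not go below 0.5. Of 33 members tested, 23 were higher and 3 lower in myeloid cells at an adjusted p under 0.05, where 24.1% of 9821 genes were called higher and 21.1% lower. TMM scaling moved the median of all genes from the class totals by 0.29 on the log2 scale. Under class totals alone 18 members were higher and 3 lower, Gpi1, Pfkp, Gapdh, Pdk1 and Mif losing their call, and the 21 described next held under both scalings. The median of all genes was then -0.34. The shares of all genes called under class totals are not given here, so these counts and those by role below have no background.

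By role, 2 transporters, 7 enzymes, 2 regulators, Egln3 and 6 hypoxia targets were higher in myeloid cells under both scalings. Hk3 was at 140 and 67.9 CPM in myeloid cells of the Nrp1L/L and control libraries and at 3.68 and 2.78 CPM in lymphoid cells, an edgeR log2 ratio of 5.27 (adjusted p = 5.56e-09). Egln3 was at 31.4 and 98.1 CPM in myeloid and 3.91 and 6.96 CPM in lymphoid cells (3.76, adjusted p = 3.25e-07), and Bnip3 at 161 and 250.2 CPM against 32.2 and 36.7 CPM (2.84, adjusted p = 6.27e-08). Pfkfb4 had 31 and 149 UMIs in myeloid cells and 0 in lymphoid cells of both libraries. Set against a floor of 3 counts per library, it was at least 21.7-fold higher in the Nrp1L/L and at least 30.3-fold higher in the control library. Hk2 (2.71), Ndrg1 (2.41), Slc16a3 (2.38), Pfkfb3 (2.46), Slc2a1 (1.996), Ero1l (2.02), P4ha1 (2.002), Hilpda (1.78), Pgam1 (1.75) and Pfkl (1.23) were also higher by edgeR. DESeq2 called 19 of the 21.

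The abundant enzymes separated the lineages less. Tpi1 (1.00), Pkm (1.01), Eno1 (0.67) and Higd1a (0.78) were higher in myeloid cells in edgeR's test, while Aldoa, Pgk1 and Ldha did not pass, with Ldha at 1807 and 2261 CPM in myeloid and 1976 and 2643 CPM in lymphoid cells of the Nrp1L/L and control libraries. The median edgeR log2 ratio was 0.66 over the enzymes and 1.28 over the hypoxia targets, against -0.05 over all genes. Lower in myeloid cells were Slc2a3 (-2.75, adjusted p = 6.36e-05), at 2.41 and 6.46 CPM against 40.5 and 37.9 CPM in lymphoid cells, Bhlhe40 (-1.38) and Ddit4 (-1.08). The glucose transporters thus split by lineage, Slc2a1 on the myeloid and Slc2a3 on the lymphoid side.

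**Figure D4:**
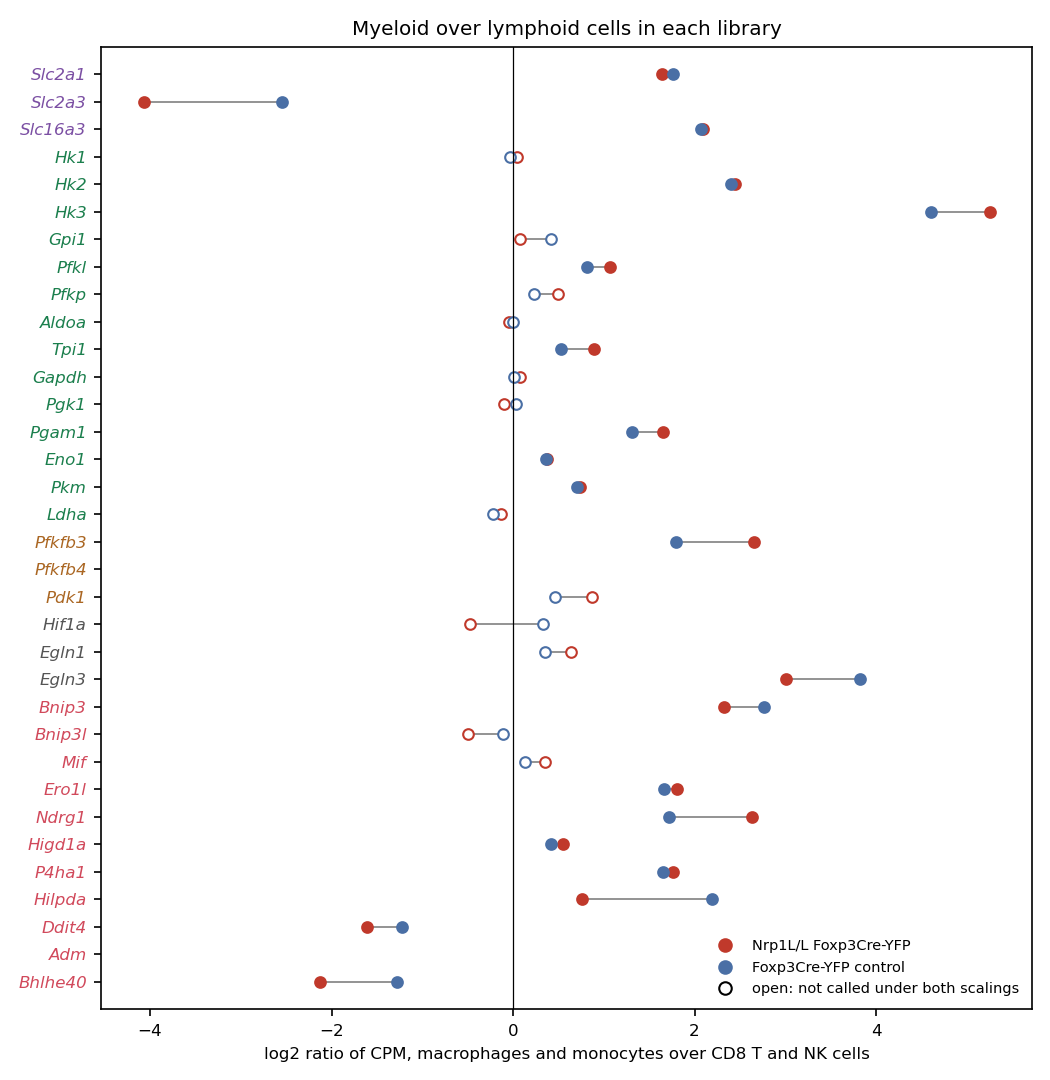
Log2 ratio of CPM of macrophages with monocytes over CD8 T with NK cells, for each gene, in the Nrp1L/L Foxp3Cre-YFP (red) and control (blue) library; filled points passed edgeR's test under both scalings, and Pfkfb4 and Adm are not drawn because a lymphoid sum was 0. Hk3 and Egln3 lie farthest right and Slc2a3 farthest left in both libraries, and the abundant enzymes Aldoa, Gapdh, Pgk1 and Ldha lie near 0.

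Between macrophages and monocytes 7 of 33 members passed, all 7 under both scalings. Mif (0.72), Gapdh (0.56) and Egln1 (1.69) were higher in macrophages by edgeR and Hif1a (-1.04), Pfkp (-0.98), Bnip3l (-0.71) and Slc16a3 (-0.61) lower, where 6.21% of 7798 genes were called higher and 7.99% lower. Hif1a was at 68.7 and 64.3 CPM in macrophages and 120 and 135 CPM in monocytes of the Nrp1L/L and control libraries (adjusted p = 0.00279). Hilpda turned with the library, at 292 CPM in macrophages and 205 CPM in monocytes of Nrp1L/L tumours and at 617 and 840 CPM in control tumours. DESeq2 called Mif and Pfkp alone, and with no library block edgeR called 0 members, while 9 had an unadjusted edgeR p under 0.05 with the block. The share of all genes at that unadjusted threshold was not computed, so the 9 cannot be judged against it.

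CD8 T cells were higher than NK cells in Gapdh (0.87, edgeR adjusted p = 2.73e-07), Tpi1 (0.53), Ldha (0.49) and Mif (0.51) and lower in Ndrg1 (-1.80, adjusted p = 0.00173), out of 30 members tested, where 5.96% of 8207 genes were called higher and 6.07% lower. The gap in Gapdh was wider in the Nrp1L/L library, 1876 CPM in CD8 T and 722 CPM in NK cells, than in the control library, 2223 and 1616 CPM. Ndrg1 was at 7.01 and 18.5 CPM in CD8 T and 23.9 and 61.9 CPM in NK cells. DESeq2, and edgeR with no library block, called 0 members in this contrast, while 11 had an unadjusted edgeR p under 0.05 with the block. The share of all genes at that unadjusted threshold was not computed, so the 11 cannot be judged against it.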

How the data were processed

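Per the submitters' processing notes, the authors used Cell Ranger 1.3 and build mm10; the values deposited by the authors are whole-number UMI counts for 27998 genes in each barcode, with 1301 barcodes in the Nrp1L/L and 1310 in the control library and 8978610 and 13042802 UMIs (median 5334 and 8079.5 per barcode). The rest was computed from these counts. Barcodes with under 200 genes or over 10% mitochondrial UMIs would have been removed, and 0 were. Scrublet (scanpy 1.11.5, 2% doublets expected) scored each library. Its calls were used in the control library (8 barcodes). In the Nrp1L/L library it marked 3 barcodes, too few for a working threshold, and the 26 with the highest scores were removed. The libraries share 3 barcode sequences. Where sums were thinned, classes were called again on the thinned counts. Counts were summed per class and library and given as CPM. Log2 ratios are Nrp1L/L over control with exact conditional binomial intervals at 95%, and shares carry exact Clopper-Pearson intervals. With no replicates, genotype was not tested. Class contrasts used edgeR 4.0.16 (TMM, quasi-likelihood, Benjamini-Hochberg over all genes, threshold 0.05) with DESeq2 1.42.0 as an alternative, in R 4.3.3; both steps were tested on simulated data. Classes of a library come from the same tumours, which is why library is a block.

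The members, gene lists and rules were chosen with earlier results of these data known. Values are given in full for members called in a class contrast or at least 1.5-fold apart with an interval excluding 0. Further members are given by range. Other pathway genes named are examples from fixed lists, each at least 1.5-fold apart with at least 20 UMIs. Further listed genes that met this are counted and not named. Genes most like the hypoxia targets are the 10 with the highest lower correlation among genes found in at least 10% of cells. Positions and pseudogene names are from GENCODE for GRCm38, and promoters from RefSeq, GRCm38.p6. Every alternative was planned except class totals with no scaling factor, which was chosen after seeing the data.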

Additional observations from a re-analysis of the deposited data

Results flagged for a closer look

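Pdk1 went in opposite directions between classes. Its log2 ratio, Nrp1L/L over control, was 0.79 in macrophages (47 and 96 UMIs), -0.84 in monocytes (21 and 86 UMIs) and -1.46 in NK cells (12 and 22 UMIs), with each counting interval on its own side of 0. The difference between the classes was not tested, since each genotype is 1 library. In macrophages the ratio was 1.32 without cycling cells, and in monocytes it was -0.31 with cells thinned to 2500 UMIs, inside 1.5-fold. In CD8 T cells it was -0.04.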

How the results depend on the processing

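The direction of the group medians held under every alternative run in CD8 T cells, NK cells and monocytes: enzymes ranged from -0.24 to -0.05, -0.92 to -0.39 and -0.60 to -0.48, and hypoxia targets from -0.44 to -0.24, -1.05 to -0.38 and -0.89 to -0.70. In macrophages hypoxia targets ranged from -0.77 to -0.40, while enzymes lay on both sides of 0 (-0.03 to 0.09). NK cells depended most on depth and cycling. Thinned to 2500 UMIs, their medians were -0.39 for enzymes and -0.38 for hypoxia targets, with 6 members lower (15 before) and 3 higher (1 before); the enzyme median was -0.47 with the mean of per-cell CPM and -0.51 without cycling cells, and higher members numbered 4 and 2 there and 0 with cells that meet both rules kept. Slc2a1 in NK cells reversed, to 0.60 thinned, 0.065 with the mean of per-cell CPM and 0.43 without cycling cells. In monocytes the count of higher members was 1 in place of 2 with all barcodes kept, thinned, with Lyz2 at least 20, and without dendritic or neutrophil UMIs. In CD8 T cells it was 2 in place of 1 with per-cell means, no low-count filter or no cycling cells, and 3 in place of 5 members were lower at 50 UMIs or without cycling cells. Shares of all genes were not computed under these alternatives, and the cause of these changes was not tested.

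The log2 ratios of shares moved beyond their counting intervals as follows. Thinned, enzymes were at -0.17 in CD8 T cells, -0.49 in NK cells and -0.57 in monocytes, and hypoxia targets at -0.28, -0.59 and -0.93. Without cycling cells, enzymes were at -0.12 in CD8 T cells, -0.61 in NK cells and -0.053 in macrophages, and hypoxia targets at -0.23, -0.67 and -0.53. Without Mif, hypoxia targets were at -0.25, -0.48, -0.61 and -1.11 in CD8 T cells, NK cells, macrophages and monocytes, and without Gapdh the NK enzymes at -0.79. Correlations between enzymes and hypoxia targets over unthinned cells were 0.57 and 0.73 in Nrp1L/L and control CD8 T cells, 0.38 in Nrp1L/L NK cells, and 0.71 and 0.77 in control macrophages and monocytes, and 0.60 in control CD8 T cells without cycling cells.

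The classes of a library are paired, and edgeR calls leaned on the library block. For macrophages over monocytes, 484 genes were higher and 623 lower with the block, against 77 and 76 with no block, 172 and 249 with DESeq2, 177 and 228 without cycling cells, and 321 and 407 thinned; 810 were higher with class totals alone. Members there were 3 higher and 4 lower, against 0 and 0 with no block and 1 and 1 with DESeq2, with 1 lower without cycling cells and 2 lower thinned. For CD8 T over NK cells, 489 genes were higher and 498 lower, against 196 and 238 with no block, 115 and 198 with DESeq2, 221 and 228 without cycling cells, and 233 and 265 thinned; members were 4 and 1, against 0 and 0 with no block or DESeq2, and 8 were higher thinned. For myeloid over lymphoid cells, 2369 genes were higher and 2073 lower, against 1578 and 1239 thinned, with 1043 lower by DESeq2, and with no block 19 members were higher and 2 lower. Leaving out a library leaves no comparison. Adm, Egln1, Pgam1, Pfkfb3 and Hk2 had few UMIs in lymphoid cells, which limits their ratios there. Pgam1 was also low in macrophages, at 12.0 CPM in Nrp1L/L and 13.3 CPM in control cells, and the reason was not tested.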

Other observations

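The 461 Nrp1L/L and 384 control cells that met no class rule held smaller shares of enzyme and hypoxia-target UMIs in the Nrp1L/L library. Enzymes took 0.722% of UMIs in Nrp1L/L and 1.05% in control cells, hypoxia targets 0.174% and 0.271%, and 17 of 34 members were at least 1.5-fold lower and 2 higher, where 18.8% of 9450 genes were lower and 18.5% higher. Hif1a was among the higher ones, at a log2 ratio of 0.93. These cells are a mixture, with T cell markers at 4239 CPM in Nrp1L/L and 1961 CPM in control cells and macrophage markers at 181 and 586 CPM, and the part of that makeup in the values was not tested.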
